A study of Mus musculus with 10 samples.

Results

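Mouse chromosome 11 was examined as 1 unit of the genome for the binding of RNA polymerase II (Pol II) and RNA polymerase III (Pol III). Its members are all peaks that lie on chromosome 11 (build mm9) in 8 lists from chromatin immunoprecipitation sequencing (ChIP-seq), a method that maps where a protein sits on DNA. There were 4153 such peaks of 46940 in all. Of these, 2971 were Pol II peaks of embryonic stem (ES) cells and 1017 were Pol II peaks of mouse embryonic fibroblasts (MEFs). The ES Pol III lists had 36 (POLR3C), 1 (POLR3G) and 31 (POLR3GL) peaks there, and the MEF lists had 32, 28 and 37 in the same order. The ES POLR3G list was nearly empty on all chromosomes, with 13 peaks and 3 of them on autosomes. The MEF POLR3G list had 177 peaks, 176 of them on autosomes. A locus without an ES POLR3G peak is therefore not shown to lack POLR3G in ES cells. Merged at 1 bp of overlap, the Pol III peaks of chromosome 11 formed 46 loci, of 389 loci on all chromosomes.

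The ES cells were the established line ES-E14TG2a, kept on gelatin with LIF and serum. The MEFs were primary cells isolated by the submitters from E12.5 embryos, grown without LIF and used after 3 to 5 passages. The labels name no genotype, strain or agent for either group and do not say whether embryos were pooled. Gene markers of the cell types could not be checked, because no gene was assigned to a peak. The in-house antibodies to POLR3C, POLR3G and POLR3GL and the N-20 antibody to Pol II gave 1 library per antibody and cell type, so no value below has a replicate check and no test between groups was made. The 2 input libraries were not analysed here. Intervals are exact Clopper-Pearson 95% intervals over peaks, and they cover counting error only. Chromosome 11 was selected on the number of its peaks in these lists, so its numbers, shares and ranks are descriptions. Read depth is unknown, and a longer list can reflect depth, threshold or binding, which cannot be told apart.

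Pol II transcribes protein-coding genes and many non-coding RNAs. Pol III makes tRNAs, 5S rRNA and other short RNAs, and POLR3C sits in a subcomplex with either POLR3G or its paralog POLR3GL. Mouse chromosome 11 is known as one of the gene-rich chromosomes, and it carries groups of tRNA genes. In the RefSeq gene table of assembly GRCm38.p6 it holds 1609 of 20665 autosomal protein-coding genes (7.79%) and 47 of 386 autosomal tRNA genes (12.2%). That table is on another build than the peaks, so it served for names, chromosome counts and gene order, and no gene was assigned to any peak.

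Pol II peaks were denser on chromosome 11 than on any other autosome in both cell types. In ES cells chromosome 11 held 25.01 peaks per Mb of the span covered by the lists, against a median of 12.7 and a highest value of 17.6 (chromosome 19) on the other 18 autosomes. In MEFs it held 8.56 peaks per Mb, against a median of 5.27 and a highest value of 7.32, again on chromosome 19. The lead over the next chromosome was therefore wider in ES cells. As a share of autosomal Pol II peaks, chromosome 11 had 9.38% (9.06 to 9.71%) in ES cells and 7.85% (7.39 to 8.32%) in MEFs.

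**Figure D1:**
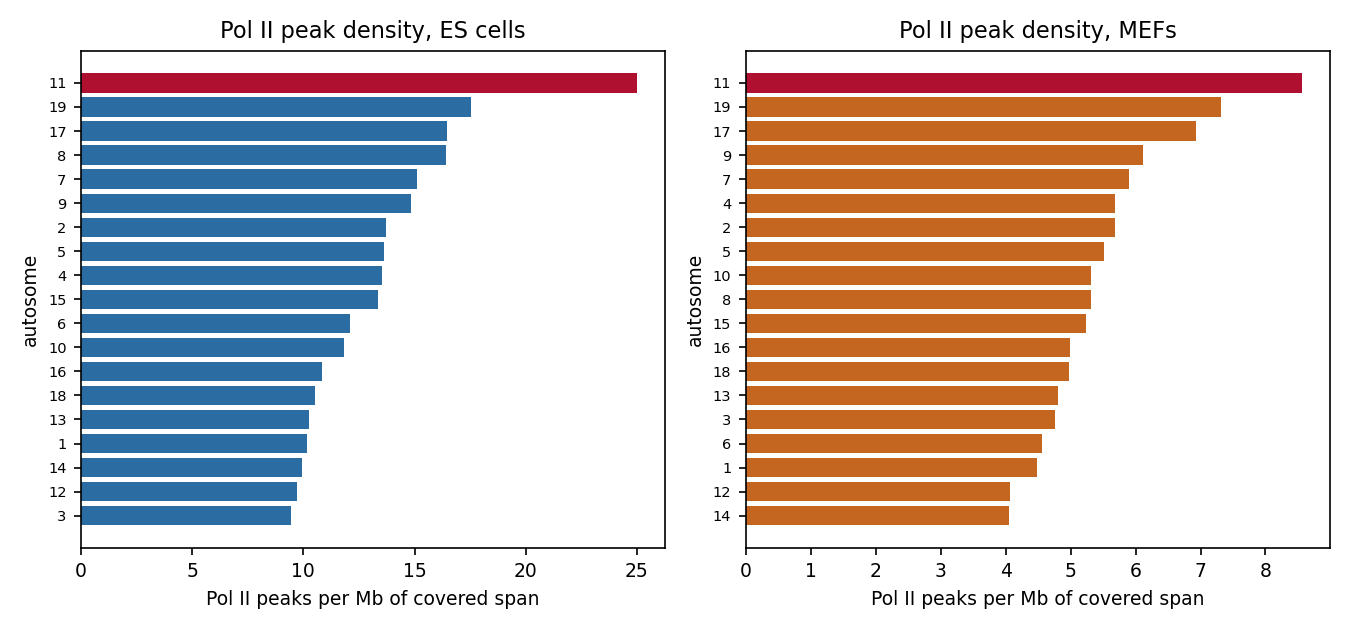
Pol II peaks per Mb of covered span (x axis) for each of the 19 autosomes (y axis, sorted), in ES cells (left) and MEFs (right), with chromosome 11 in red. Each bar is 1 peak list and has no error bar because there is 1 library per cell type. Chromosome 11 leads both panels, at 25.01 and 8.56 peaks per Mb.

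Set against gene number, the cell types differed in their rank. Chromosome 11 had 1.85 ES Pol II peaks per protein-coding gene, the second highest of the 19 autosomes after chromosome 8 (2.02), where the median of the others was 1.51. In MEFs it had 0.632 peaks per gene and ranked 12, with a median of 0.652 on the others. The MEF share of 7.85% thus lay close to the gene share of 7.79%, while the ES share lay above it. The number of ES peaks for each MEF peak was 2.92 on chromosome 11, against a range of 1.98 to 3.09 and a median of 2.40 on the others. Only chromosome 8 had a higher ratio. Peak numbers can move with the number of chromosome copies in a culture, which was not measured here, so its part in these ratios was not tested.

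The higher number of ES peaks was spread over all scores. Of the chromosome 11 peaks, 25.2%, 25.04%, 24.2% and 25.5% fell into the 4 score quartiles of the autosomal ES list, from lowest to highest. When the ES list was shortened to the 12962 top-scored peaks, the length of the autosomal MEF list, chromosome 11 kept 1215 peaks or 9.37% (8.88 to 9.89%). It then held 10.2 peaks per Mb, against at most 7.70 on any other autosome, and 1.19 times as many peaks as in MEFs.

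ES peaks on chromosome 11 also lay closer together. The median gap between neighbouring peaks was 3438 bp, the shortest of all autosomes (4117 to 8591 bp on the others), and 39.0% of the peaks lay in runs of 5 or more with gaps of at most 5 kb. On the other autosomes that share was 24.9 to 35.7%. In MEFs no run on chromosome 11 reached 5 peaks, and on the other autosomes the median share in such runs was also 0% (highest 2.14%). The median MEF gap of 37334 bp was short as well, ranking 17 of 19 from the longest. The other autosomes had 36013.5 to 61381 bp, with a median of 49953 bp. ES Pol II peaks covered 3.69% of the span of chromosome 11, against 1.25 to 2.73% on the other autosomes. MEF peaks covered 1.36%, against 0.570 to 1.04%.

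Along the chromosome, Pol II was concentrated in the same stretches in both cell types. In bins of 1 Mb, ES cells had a median of 20 peaks (quartiles 4 and 40.5, highest 118) and MEFs a median of 6 (quartiles 2 and 14, highest 36). Of 119 bins, 98 held peaks of both cell types, 14 held none, 5 held ES peaks only and 2 held MEF peaks only. The 10 fullest bins held 25.5% of the ES peaks and 25.7% of the MEF peaks, and 7 of these 10 bins were the same in both lists. Counts per bin were correlated between the cell types over the 119 bins (Pearson r = 0.83, Spearman rho = 0.87), which share libraries and gene content across neighbouring bins and get no p. The other autosomes had r from 0.65 to 0.89 with a median of 0.83, so chromosome 11 was near the middle. It had 20 bins with 50 or more ES peaks, whereas no other autosome had more than 10.

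**Figure D2:**
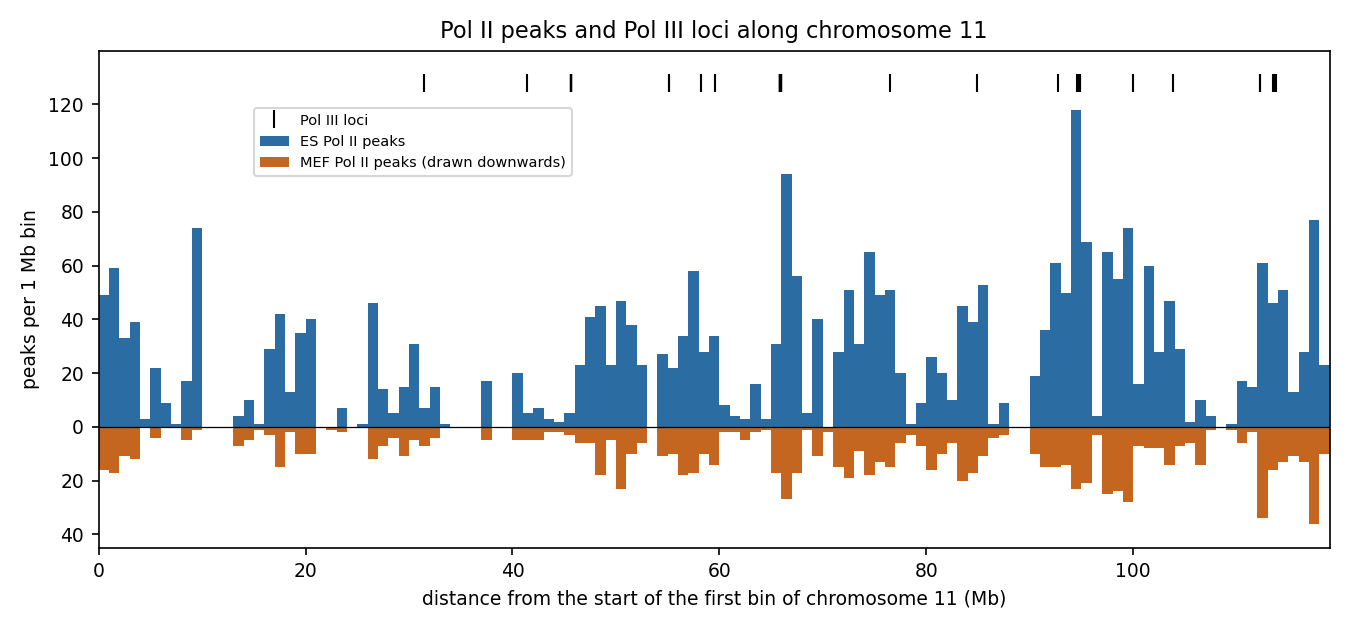
Number of Pol II peaks in each 1 Mb bin of chromosome 11 (y axis; ES cells upwards in blue, MEFs downwards in orange) against the distance from the start of the first bin in Mb (x axis), with the 46 Pol III loci as black ticks. High and low stretches coincide, the fullest bin has 118 ES and 23 MEF peaks, and 1 bin near the left end has 74 ES peaks and 1 MEF peak.

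The fullest ES bin was chr11:97000001-98000000, with 118 ES peaks and 23 MEF peaks. ES Pol II peaks covered 17.9% of its bases and MEF peaks 4.34%. It also held 6 Pol III loci. Next came chr11:69000001-70000000 with 94 ES and 27 MEF peaks, chr11:120000001-121000000 with 77 and 36, and chr11:102000001-103000000 with 74 and 28. The MEF list was fullest at chr11:120000001-121000000 (36 peaks), followed by chr11:115000001-116000000 with 34 MEF and 61 ES peaks. These 2 bins are near the distal end of the chromosome. The fifth MEF bin was chr11:100000001-101000000, with 25 MEF and 65 ES peaks.

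One bin broke the shared pattern. At chr11:12000001-13000000 ES cells had 74 peaks, the fourth highest count, and MEFs had 1, and none of the 74 overlapped it. A run of 43 of these ES peaks spanned 108 kb at chr11:12237354-12345316, covered 50.8% of that stretch and contained no MEF peak. Their scores were in the middle range, with a median at percentile 40.8 of the autosomal ES list. It was the longest run on chromosome 11, but several other autosomes had longer ones, up to 80 peaks on chromosome 14 and 71 on chromosome 13. The next runs in length, at chr11:97013030-97089388 (30 peaks in 76.4 kb) and chr11:69465437-69527223 (28 peaks in 61.8 kb), contained 2 and 3 MEF peaks.

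Other bins leaned to ES cells less strongly. Measured as the share of all chromosome 11 peaks of a list, the bin at 12 Mb had 2.49% of the ES and 0.0983% of the MEF peaks. The fullest ES bin, at 97 Mb, came next with 3.97% of the ES and 2.26% of the MEF peaks. The bin at chr11:104000001-105000000 had 2.02% and 0.787% (60 and 8 peaks). The bins at chr11:50000001-51000000 (41 and 6 peaks) and chr11:88000001-89000000 (53 and 11 peaks) followed. In the other direction, chr11:115000001-116000000 had 2.05% of the ES and 3.34% of the MEF peaks, chr11:120000001-121000000 had 2.59% and 3.54%, and chr11:109000001-110000000 had 0.337% and 1.38%. That last bin is 1 of 8 in which MEFs had more peaks than ES cells, 14 against 10, in spite of the shorter MEF list. The bins at chr11:83000001-84000000 (16 MEF and 26 ES peaks) and chr11:53000001-54000000 (23 and 47) completed the 5 that leaned most to MEFs. The longest stretches without a Pol II peak of either cell type were the 3 bins of chr11:13000001-16000000 and the 3 bins of chr11:37000001-40000000.

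The scores of Pol II peaks were ranked within each list, since their scale is not stated. ES peaks of chromosome 11 had a median percentile of 49.7 among autosomal ES peaks, and 335 of 2971 (11.3%, 10.2 to 12.47%) were in the top 10% of scores. The background on the other autosomes was 9.87%, and chromosome 11 ranked 4 of 19. MEF peaks had a median percentile of 53.5, and 139 of 1017 (13.7%, 11.6 to 15.9%) were in the top 10%, against a background of 9.69%. This was the highest share of the 19 autosomes, with 13.4% on chromosome 7 next. MEF peaks of chromosome 11 were also the widest of any autosome, with a median of 1210 bp against 1020 to 1157 bp. Peaks of 4 kb or more made up 5.41% of them, against a background of 3.51%, and 5.18% of the ES peaks, against 4.35%.

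In ES cells the score had a pile-up at 3100, a value shared by 362 autosomal peaks, of which 50 lay on chromosome 11. Only 3 peaks of chromosome 11 scored higher. They were chr11:80218227-80224964 (3196.71, rank 6 of the autosomal list), chr11:98850457-98857776 (3137.47) and chr11:75576803-75584814 (3107.07). The first and second had no MEF peak, and the nearest MEF peaks were 17521 and 12078 bp away. The last of the 3 overlapped a MEF peak at percentile 66.0. The lowest-positioned peaks at 3100 were the neighbours chr11:6314221-6319606, which overlapped a MEF peak at percentile 90.6, and chr11:6319692-6324160, which had none within 1308 bp. Further peaks at 3100 with no MEF partner were chr11:9014683-9020368, 103046 bp from the nearest MEF peak, and chr11:20126830-20133596. The widest ES peak, 18358 bp at chr11:51402909-51421266, also scored 3100 and had no MEF partner, though a MEF peak lay 688 bp away.

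The leading MEF peaks all had ES partners. They were chr11:87256821-87258536 (score 2729.22, rank 2 of the autosomal MEF list), chr11:68886497-68888255 (2693.60, rank 3), chr11:87275895-87277917 (2571.10, rank 5), chr11:101503252-101507055 (2527.04, rank 7) and chr11:101519479-101522923 (2107.64, rank 10). The highest-scored partner was at 3100 for 4 of them and at 1851.78 for the fourth. The first and the third are near neighbours, and just before the first lies the widest MEF peak, chr11:87235741-87244808. That peak is 9068 bp wide with a low score of 55.46 and overlaps 2 ES peaks. MEF peaks without an ES partner were led by chr11:108872882-108873681, with a score of 1011.40 (percentile 99.5) and 346065 bp from the nearest ES peak. Next were chr11:97310476-97313087 (672.09), chr11:86436419-86438673 (642.79), chr11:94742037-94743759 (631.25) and chr11:81858818-81862648 (514.55). The last lay 432599 bp from any ES peak.

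Of the MEF Pol II peaks on chromosome 11, 719 of 1017 overlapped an ES Pol II peak (70.7%, 67.8 to 73.5%), the highest share of all autosomes. The background on the other autosomes was 61.4% (60.5 to 62.3%), with a range of 54.6 to 68.2%. In the other direction 772 of 2971 ES peaks overlapped a MEF peak (26.0%, 24.4 to 27.6%), against a background of 27% (26.4 to 27.5%), so that here chromosome 11 lay near the rest and ranked 15. The share of MEF peaks was higher on chromosome 11 in each score quartile. The shares on chromosome 11 were 46.3%, 59.7%, 78.0% and 91.7% from the lowest to the highest quartile, and on the other autosomes 35.8%, 52.6%, 71.1% and 86.8%. The intervals overlapped in quartile 2 (53.1 to 66.0% against 50.8 to 54.4%) and in quartile 3 (72.3 to 83.0% against 69.4 to 72.7%). In quartile 4 they were barely apart (88.02 to 94.6% against 85.5 to 87.97%). ES peaks had 6.94%, 15.1%, 28.5% and 53.2% on chromosome 11 and 9.97%, 16.2%, 30.2% and 51.5% elsewhere.

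**Figure D3:**
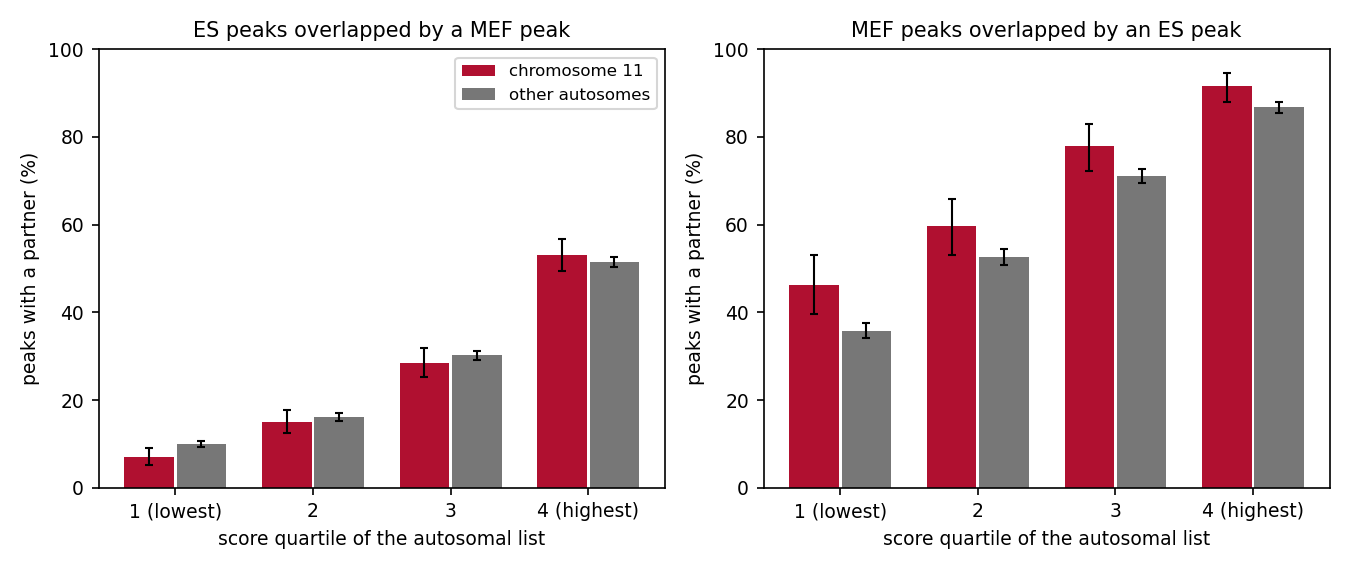
Share of Pol II peaks with at least 1 bp of overlap in the other cell type (y axis, %) by score quartile of the autosomal list (x axis), for chromosome 11 (red) and the other autosomes (grey), with 95% binomial intervals. Sharing rises with the score in both lists, and the red bars stand above the grey ones in all 4 quartiles for MEF peaks only. The MEF intervals overlap in quartiles 2 and 3.

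The span covered by ES peaks moved with the share of MEF peaks that had an ES partner. Its part in that share was not tested. Over the 19 autosomes, the share of MEF peaks with an ES partner followed the span covered by ES peaks (Spearman rho = 0.78, and 0.74 without chromosome 11). The share of ES peaks with a MEF partner had no such relation to the span covered by MEF peaks (rho = 0.03, and 0.11 without chromosome 11). When the ES list was cut to the same number of top-scored peaks per Mb on every autosome (9.44 per Mb, 1121 of the 2971 peaks kept on chromosome 11), a setting chosen after seeing the data, the order turned round. Then 51.1% (48.0 to 54.2%) of the MEF peaks of chromosome 11 had a partner, the lowest of the 19 autosomes, against 56.6% (55.7 to 57.5%) on the others. The share of the kept ES peaks of chromosome 11 with a MEF partner was 46.4%, which moved from rank 15 to rank 1. This cut removed a larger fraction of the ES peaks on chromosome 11 than elsewhere. With the most MEF peaks per Mb (8.56), chromosome 11 then had the fewest ES peaks for each MEF peak. Its kept ES peaks were the top-scored ones, and sharing rises with the score. Both moves in rank are partly built into the cut, so no conclusion is drawn from them. With the ES list cut to the length of the MEF list by score alone, the share was 53.5% and chromosome 11 again ranked first.

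**Figure D4:**
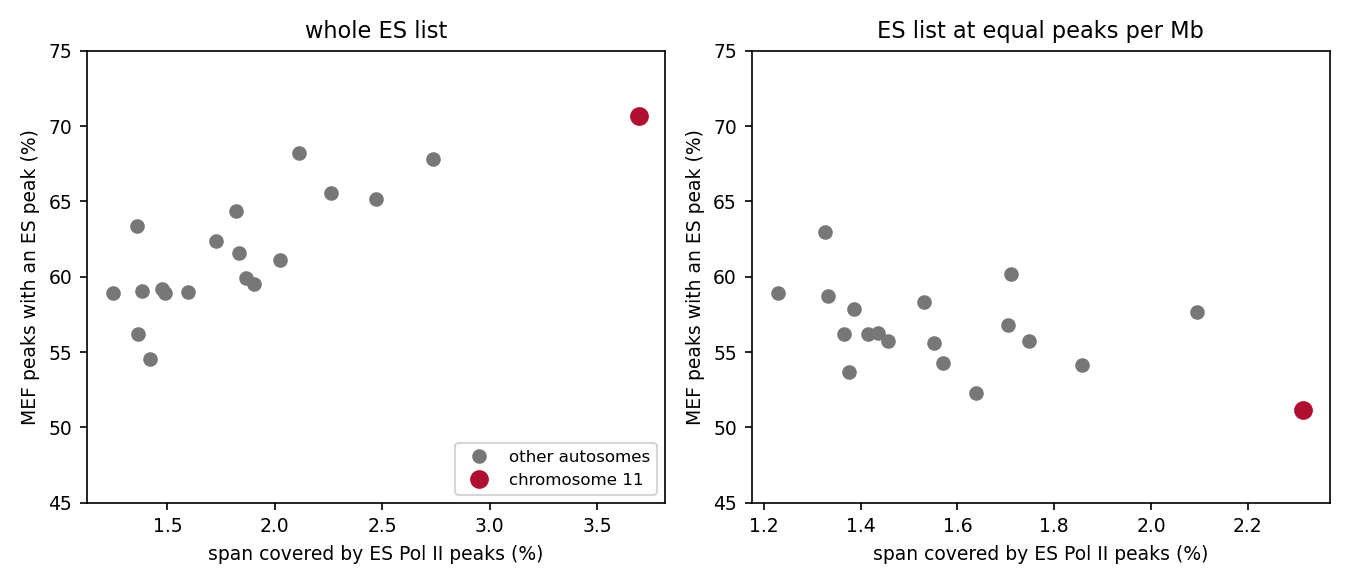
Share of MEF Pol II peaks with an ES peak (y axis, %, starting at 45) against the part of the span covered by ES Pol II peaks (x axis, %), 1 point per autosome, with chromosome 11 in red. With the whole ES list (left) chromosome 11 is highest on both axes (3.69% covered, 70.7% shared), and with equal numbers of ES peaks per Mb (right) it has the lowest shared part, 51.1%.

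Shared and unshared peaks of chromosome 11 differed in size. Shared ES peaks had a median width of 1170 bp and a median score percentile of 76.9, and unshared ones 930 bp and 40.3. Shared MEF peaks had 1323 bp and 64.3, and unshared ones 938 bp and 30.3. Of the 335 ES peaks in the top 10% of scores, 130 had no MEF partner (38.8%, 33.6 to 44.3%), near the background of 41.3% on the other autosomes. Of the 139 such MEF peaks, 12 had no ES partner (8.63%, 4.54 to 14.6%), near the background of 8.81%. Of the MEF peaks, 656 met 1 ES peak and 63 met more than 1, up to 4. Where 1 peak met exactly 1 (622 pairs), the scores of the 2 cell types were weakly correlated (Spearman rho = 0.33, against 0.25 to 0.46 on the other autosomes). In windows of 10 Mb, the share of MEF peaks with a partner ran from 57.1% (34.0 to 78.2%, 21 peaks, chr11:33000001-43000000) to 79.1% (64.0 to 89.96%, 43 peaks, chr11:13000001-23000000), with overlapping intervals. The share of ES peaks was lowest in the window chr11:3000001-13000000, with 15.0% (11.2 to 19.5%) of 306 peaks, and highest in chr11:53000001-63000000, with 30.2% (25.2 to 35.7%) of 311 peaks. The lowest window contains the bin at 12 Mb.

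For Pol III, chromosome 11 stood second to chromosome 13. It held 46 of 369 autosomal loci (12.47%, 9.27 to 16.3%), or 0.387 per Mb against 0.864 on chromosome 13 and a median of 0.100 on the others. This share lay beside the 12.2% share of tRNA genes in the RefSeq table. With peaks widened by 500 bp before merging, the share of loci was 10.8% (7.46 to 15.0%). By list, chromosome 11 had 11.6% of the autosomal POLR3C peaks and 13.4% of the POLR3GL peaks of ES cells. In MEFs it had 11.7% of the POLR3C peaks, 15.9% (10.8 to 22.2%) of the POLR3G peaks and 14.1% of the POLR3GL peaks. These intervals all include the 12.47% of the merged loci.

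Pol III peaks of chromosome 11 ranked high in their lists. Their median score percentile among autosomal peaks was 66.3 for POLR3C and 64.5 for POLR3GL in ES cells, and in MEFs it was 74.2 (POLR3C), 72.0 (POLR3G) and 69.8 (POLR3GL). On the other autosomes the medians were between 46.5 and 49.0. In ES cells 21 of 36 POLR3C and 19 of 31 POLR3GL peaks of chromosome 11 ranked above the middle of their autosomal list, with tied scores sharing a mean rank. In MEFs these were 25 of 32 for POLR3C, 18 of 28 for POLR3G and 28 of 37 for POLR3GL. The top of both POLR3C lists was the same single locus, at chr11:106874103-106874340, with scores of 3069 in ES cells and 319 in MEFs. It ranked 10 of the ES POLR3GL list (49), 12 of the MEF POLR3G list (39) and 3 of the MEF POLR3GL list (86). No other Pol III locus lay within 200 kb of it.

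The 46 loci fell into 16 groups when those at most 200 kb apart were joined. Of these, 3 groups had 3 or more loci and together held 30 loci, 3 groups had 2 loci and 10 loci stood alone. In the RefSeq table, the tRNA genes of chromosome 11 form 15 groups by the same distance, of which 4 have 3 or more genes. In order along the chromosome these 4 hold 8, 18, 6 and 3 genes, and the 3 large groups of Pol III loci hold 7, 17 and 6 loci in order. The match of order and size is a description across 2 builds and assigns no gene. The group sizes also rest on merging at 1 bp of overlap, which counts close peaks that do not touch as separate loci.

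The first large group, 7 loci over 38.3 kb at chr11:48631926-48670242, was the most evenly occupied. All 5 lists other than ES POLR3G called 6 of the 7 loci, with POLR3C scores of 1911 to 2873 in ES cells and 249 to 265 in MEFs. The seventh, chr11:48669728-48669875, was called by POLR3GL in MEFs alone (42), and a MEF POLR3C peak lay 143 bp away. At the distal end, chr11:48670019-48670242 had the highest scores of the group for both ES lists, 2873 for POLR3C and 54 for POLR3GL, ranks 5 and 3 of those lists. No ES Pol II peak overlapped this group, and a MEF Pol II peak overlapped 1 locus, chr11:48631926-48632206. The bin around it was poor in Pol II, with 5 ES and 3 MEF peaks. The first large RefSeq group names tRNA genes for valine, glycine, lysine, alanine, threonine, proline and leucine.

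The second group, with 17 loci over 88.4 kb at chr11:68850440-68938871, was more mixed. POLR3C called 12 of its loci in ES cells and 11 in MEFs, POLR3GL 14 and 15, and POLR3G 12 in MEFs. Only 7 loci were called by all 5 lists, although 14 were called in both cell types. The scores of the ES POLR3C peaks ran from 312 to 2652 with a median of 2047.5. The highest, chr11:68938648-68938871, scored 2652 for POLR3C and 48 for POLR3GL in ES cells, and 242, 30 and 72 for POLR3C, POLR3G and POLR3GL in MEFs. The locus chr11:68854664-68854928 led the group in MEFs, with 266, 37 and 73. At chr11:68932234-68932480 the MEF scores were 253, 33 and 72. Pol II of ES cells overlapped 6 of the 17 loci and Pol II of MEFs 4. The strong MEF Pol II peak at chr11:68886497-68888255 lies between the loci of this group, and the nearest locus, chr11:68889323-68889536, was 1067 bp away and was called by ES POLR3C alone (312). The largest RefSeq group names 18 tRNA genes, among them genes for isoleucine, serine, threonine and tryptophan.

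The third group, 6 loci at chr11:97563646-97850421, was the loosest, at 287 kb. It lay in the bin with the most ES Pol II peaks, and ES Pol II overlapped 4 of its 6 loci and MEF Pol II 2. POLR3C called all 6 in both cell types, POLR3GL called 5 in each and POLR3G called 3 in MEFs. The locus with the highest MEF scores was chr11:97850124-97850421, where POLR3C scored 262, POLR3G 40 and POLR3GL 67, and in ES cells POLR3C scored 2262 and POLR3GL 39. The weakest was chr11:97631036-97631272, called by POLR3C only (481 in ES cells, 53 in MEFs). Loci chr11:97658286-97658571 and chr11:97660186-97660409 were called by POLR3C and POLR3GL in both cell types without POLR3G. The RefSeq group of 6 tRNA genes holds 1 for asparagine and 5 for cysteine.

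**Figure D5:**
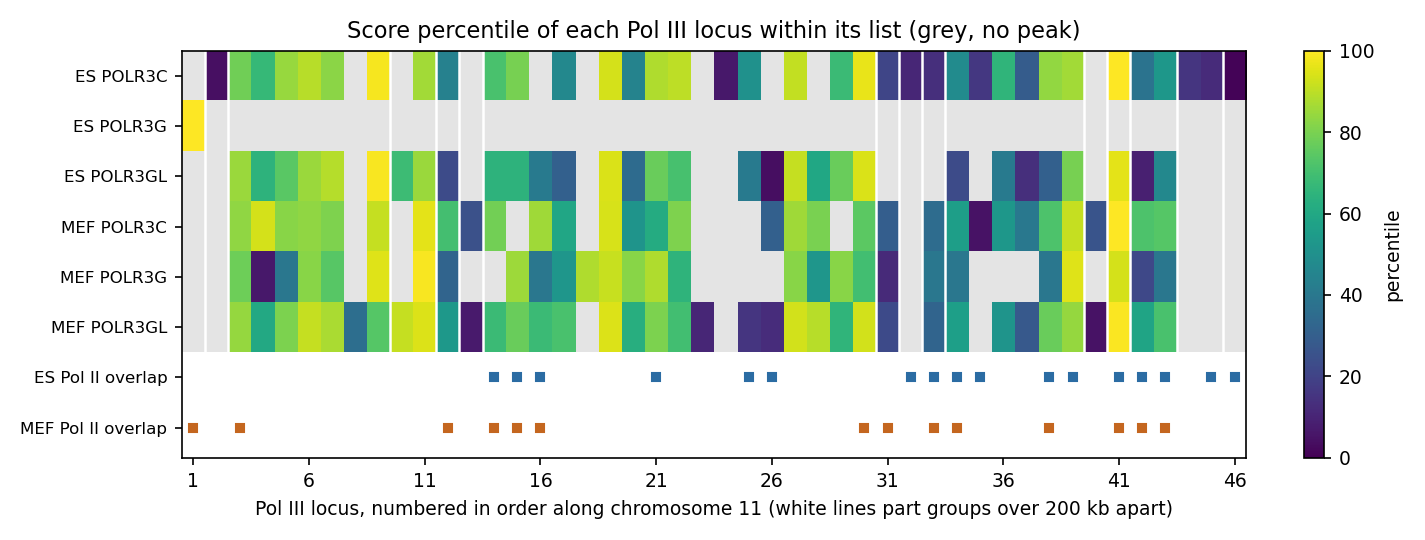
Score percentile (colour, 0 to 100) of each of the 46 Pol III loci of chromosome 11 (x axis, in order) within the autosomal peaks of each list (y axis), with grey where a list has no peak, and squares for overlap with a Pol II peak. White lines part groups over 200 kb apart. The 2 large blocks at loci 3 to 9 and 14 to 30 are bright in most lists, and the last 3 loci have only low ES POLR3C scores.

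The smaller groups included strong sites. At chr11:58115917-58116140 the MEF POLR3C score was 277, that of POLR3G 44 (rank 2 of its list) and that of POLR3GL 73, and ES scores were 2262 for POLR3C and 41 for POLR3GL. Its neighbour chr11:58115612-58115801 was called by POLR3GL only (71 in MEFs, 35 in ES cells), and the nearest POLR3C peaks were 115 and 118 bp away. The pair chr11:115274174-115274445 and chr11:115275046-115275279 was called by all 5 lists and lay in Pol II peaks of both cell types. The ES Pol II peak there was 3987 bp wide (percentile 96.1) and the MEF peak 2243 bp (percentile 96.7). These POLR3C scores were 1248 and 1612 in ES cells and 240 and 241 in MEFs.

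Of the 46 loci, 34 (73.9%, 58.9 to 85.7%) were called in both cell types, against a background of 71.8% on the other autosomes, which lies inside the interval. All 5 lists called 21 loci (45.7%, 30.9 to 61.0%), against a background of 38.4%. For POLR3GL, all 31 ES POLR3GL peaks of chromosome 11 overlapped a MEF POLR3GL peak (lower bound 88.8%), as did 95.5% on the other autosomes. Of the 37 MEF POLR3GL peaks, 31 (83.8%) had an ES partner, near the 84.5% on the other autosomes. For POLR3C, 27 of 36 ES peaks (75%) and 27 of 32 MEF peaks (84.4%) had a partner, against 79.3% and 90.1% elsewhere. POLR3G, the paralog of POLR3GL, was found with POLR3C at 25 of the 32 MEF POLR3C peaks (78.1%, 60.03 to 90.7%), against 55.8% (49.3 to 62.1%) on the other autosomes. The intervals overlap slightly. Pol III peaks of chromosome 11 also had higher scores, and the part of these scores in this share was not tested. Across shared loci of chromosome 11 the scores of POLR3C were correlated between the cell types (27 loci, Spearman rho = 0.79, against 0.64 over 218 loci elsewhere), and so were those of POLR3GL (31 loci, rho = 0.80, against 0.56 over 192). These loci come from the same libraries and many are neighbours.

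Loci called in 1 cell type were about as frequent as elsewhere. In ES cells there were 7 (15.2%, 6.34 to 28.9%, against a background of 17.6%), of which 6 were called by POLR3C alone with scores of 260 to 455, at or under percentile 15.6 of that list. The seventh was the only POLR3G peak of ES cells on this chromosome, chr11:34495273-34495424 (score 19, the highest of the 3 autosomal peaks of that list). It had no POLR3C or POLR3GL peak, lay in a MEF Pol II peak and was 22896 bp from the nearest ES Pol II peak. In MEFs there were 5 (10.9%, 3.62 to 23.6%, against a background of 10.5%). Of these, 3 were called by 1 list and lay beside Pol III peaks of ES cells. They were chr11:48669728-48669875 (POLR3GL, percentile 36.3, 153 bp away), chr11:68854402-68854549 (POLR3G, percentile 88.1, 118 bp) and chr11:68876999-68877146 (POLR3GL, percentile 10.8, 262 bp). The other 2 were called by more than 1 list. These were chr11:62559384-62559607 with POLR3C at 157 and POLR3GL at 22, and chr11:102995606-102995829 with 161 and 20. From these 2, the nearest Pol III peaks of ES cells were 1337813 and 3878297 bp away. Both scored low in their lists, with percentiles of 24.6 and 25.9 for POLR3C and 7.22 and 4.94 for POLR3GL.

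Some loci had POLR3G or POLR3GL but no POLR3C of the same cell type, 5 of them for ES cells (10.9%, 3.62 to 23.6%) and 7 for MEFs (15.2%, 6.34 to 28.9%). The background on the other autosomes was 4.33% and 7.43%, inside these intervals. The POLR3C list of that cell type had a peak within 500 bp of 4 of the 5 and of all 7, at 76 to 448 bp in MEFs. The sites are therefore mostly neighbours of a POLR3C peak that does not touch. In the group of 17 loci they were chr11:68851239-68851508, chr11:68924306-68924529 and chr11:68937715-68937938 in ES cells, where MEF POLR3C scored 253, 178 and 247. In MEFs they were chr11:68850898-68851162, chr11:68923865-68924112 and chr11:68938038-68938251, where ES POLR3C scored 2106, 1586 and 1924. Further such loci in MEFs were chr11:68854402-68854549, called by POLR3G alone (35), and chr11:68876999-68877146, called by POLR3GL alone (24).

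Most Pol III loci had no overlapping Pol II peak. ES Pol II overlapped 17 of 46 (37.0%, 23.2 to 52.5%), against a background of 31.3% on the other autosomes, and MEF Pol II overlapped 14 (30.4%, 17.7 to 45.8%), against 28.5%. Both backgrounds lie inside the intervals. Of the 46 loci, 9 (19.6%) had Pol II in both cell types, against a background of 17%, and 22 (47.8%) had it in at least 1, against a background of 42.7%. Pol II was often near without touching, since an ES Pol II peak lay within 5 kb of 30 loci (65.2%, against 52.0% elsewhere) and a MEF Pol II peak of 32 (69.6%, against 48.6%). Pol II peaks were also denser on chromosome 11, and the part of this density in these shares was not tested. The largest distances were 43045 bp for ES Pol II and 55026 bp for MEF Pol II. The loci lay in 12 distinct ES Pol II peaks with a median score percentile of 73.7 (12.2 to 96.9), and in 11 distinct MEF peaks with a median of 61.7 (16.9 to 96.7). On the other autosomes these medians were 61.0 over 92 ES peaks and 66.2 over 83 MEF peaks. The leading Pol III locus, chr11:106874103-106874340, lay in Pol II peaks of both cell types, at percentile 41.7 in ES cells and 80.4 in MEFs. Over the 119 bins, the number of Pol III loci was weakly related to the number of Pol II peaks (Pearson r = 0.15 and Spearman rho = 0.25 in ES cells, 0.19 and 0.31 in MEFs). Each of the 15 bins with a Pol III locus held Pol II peaks of both cell types, as did 98 of all 119 bins.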

How the data were processed

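Each of the 8 lists was used as deposited. Its score is the authors' own value for each peak, and its scale is not stated. CASAVA 1.8, Bowtie 1.12, SAMtools and HOMER and the build mm9 are named in the submitters' processing notes, and Pol II peak names begin with MACS. Of thresholds, controls and read depth nothing is stated in the labels. Positions follow the BED convention (0-based starts) and are printed 1-based. Pol III peaks had 1 fixed width per list. Comparisons used the 19 autosomes, with spans from the first to the last base covered by any list. Peaks were shared at 1 bp of overlap and put into 1 Mb bins by midpoint. Scores were ranked within a list. Named regions were the 5 leading peaks per list, the 5 leading unshared Pol II peaks, the widest peaks, extreme bins, groups of 3 or more loci and loci of 1 cell type or without POLR3C. Members, lists and rules were chosen with earlier results of these data known. Functions were tested on simulated peaks. Python 3.11.15, numpy 2.4.6, pandas 2.3.3, scipy 1.17.1 and matplotlib 3.10.9 were used.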

Additional observations from a re-analysis of the deposited data

How the results depend on the processing

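Of 45 alternatives for 12 results, 32 stayed within the 95% interval of the reported value, and the correlation over bins and all Pol III results were among them. The Pol III intervals are wide because the loci are few, so staying inside them does not mean that a value was stable. The share of loci overlapped by ES Pol II was 37.0% as reported. It was 28.3% with Pol II peaks at or above the median score and 50% with Pol II peaks widened by 1 kb. For MEF Pol II these shares were 30.4%, 19.6% and 43.5%. The ES share of Pol II peaks on chromosome 11 was 9.84% by bases covered and 8.96% with peaks at most 1 kb apart joined, and the MEF share was 8.52% at or above the median score and 8.78% by bases. Ranked per Mb of span, chromosome 11 was the highest of the 19 autosomes under each of these 4 settings. The share of ES peaks with a MEF partner was 31.1% with peaks widened by 500 bp, 28.8% at or above the median scores, 45.02% with the ES list cut to the MEF length and 46.4% at equal ES density. The share of MEF peaks with an ES partner was 73.9%, 53.5% and 51.1% under the last 3 settings. Only equal density moved chromosome 11 from the first rank, to 19, and that setting left it the fewest ES peaks for each MEF peak. With loci at most 200 kb apart counted once, chromosome 11 held 10.9% of the Pol III sites and ranked 1 instead of 2 by sites per Mb. The top 25% of scores held 25.5% of the ES peaks of chromosome 11 (23.95 to 27.1%), against 24.9% on the other autosomes, so the excess seen in the top 10% was not seen there and the rank was 6. It held 29.7% of the MEF peaks, against 24.6%, still rank 1. Equal density and the cut of the ES list for the Pol II share were added after seeing the data. No paired analysis was possible because each group has 1 library.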
